A study of Mus musculus with 12 samples.

Results

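The 10 genes described here are Atf4, Atf5, Ddit3, Ppp1r15a, Ppp1r15b, Ifrd1, Slc35a4, Asns, Trib3 and Chac1, which are regulated through upstream open reading frames (uORFs) or act in the integrated stress response of mouse cells. They were chosen by gene symbol among 22462 genes of a table of ribosome profiling counts, and each symbol matched a single gene. All 10 genes passed the filter on low counts, as did 11750 genes in all.

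In the integrated stress response, kinases that sense stress phosphorylate the translation factor eIF2α, which lowers general initiation. Messages such as Atf4 carry short reading frames ahead of the main start codon that hold down translation of the main protein in unstressed cells and release it when eIF2 activity drops. The ATF4 protein then switches on genes of amino acid supply and of feedback, among them Asns, Trib3, Ddit3 and Chac1.

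The study compared mouse embryonic stem cells (ESCs), grown in serum with LIF and the 2i inhibitors PD0325901 and CHIR99021, with epiblast-like cells (EpiLCs), collected about 56 hours after LIF and 2i were removed. Its methods name a single V6.5 ESC line with miR290-mCherry and miR302-GFP reporters for this differentiation. EpiLCs were derived from ESCs, so the cell types differ in culture time and in medium as well as in state, and these cannot be told apart. Ribosome protected fragments (RPFs), the stretches of mRNA that a ribosome shields from nuclease, and total RNA were each sequenced from both cell types, giving 4 groups of 3 libraries. The study calls its replicates biological, while the labels do not say what separates them, so p-values measure the spread between these samples.

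Total counts were 2681439 to 11359352 in the RPF libraries and 6188838 to 14655015 in the total RNA libraries. All 6 markers of naive ESCs were called lower in EpiLCs and all 4 primed epiblast markers higher in total RNA and in RPF, which matches the cell type labels. Of 5 fibroblast markers, 2 were measured above the filter and both were called higher in EpiLC total RNA. The summed level of all 5 was 1.98 to 2.26 CPM (counts scaled to library size) in ESC and 8.98 to 12.1 CPM in EpiLC total RNA. In each group, 1 or 2 of the 5 were at 0 in every library. The summed level of 4 neural markers was 129.9 to 160.3 CPM in ESC and 308 to 384 CPM in EpiLC total RNA. Of these 4, Nes (log2 change 2.43) and Pax6 (4.77, from 1 to 11 counts a library in ESCs) were called higher in total RNA. Tubb3 had −0.75 (adjusted p = 1.89e-07, limma) and Sox1 0.18 (adjusted p = 0.411). Of 4 mesoderm markers only Eomes passed the filter and was called lower (−1.19). Of 5 endoderm markers only Gata4 passed and was not called. Of 3 pluripotency genes of both states, 1 was called higher and 1 lower. The part of these marker differences in the results was not tested. In bulk samples, fewer cells of a type and less RNA per cell cannot be told apart.

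Upstream AUG codons were counted in a single Gencode M21 transcript of each gene, on the mm10 assembly. Atf4, the central transcription factor of the response, has 3 of them: the first opens a reading frame of 36 codons that lies 475 nt ahead of the main AUG, the second a frame of 3 codons, and the third, 97 nt ahead, a frame of 59 codons that runs out of frame across the main start and overlaps the coding sequence by 83 nt. Atf5 has the same arrangement with 2 upstream AUGs, a frame of 3 codons followed by a frame of 58 codons that overlaps the coding sequence by 56 nt. Ddit3 has 2 in the same frame, which give 34 and 31 codons up to a shared stop ahead of the main AUG. Ppp1r15a and Ppp1r15b have 3 each, with frames of 45, 34 and 26 codons in the former and of 2, 8 and 51 codons in the latter. Ifrd1 has a single frame of 52 codons, 202 nt ahead of the main AUG. The contexts below, read from the transcript on the sense strand with the start codon in capitals, show these starts in Atf4, Ddit3, Ppp1r15a and Ifrd1, and the main starts of Trib3 and Chac1, which have no AUG in their 5′ UTR.
Atf4 upstream AUG 1: tctctcATGgggc
Atf4 upstream AUG 2: gccaccATGgcgt
Atf4 upstream AUG 3: taagccATGgcgc
Atf4 main AUG: cacaacATGaccg
Ddit3 upstream AUG 1: tatatcATGttga
Ddit3 upstream AUG 2: ttgaagATGagcg
Ddit3 main AUG: gcagtcATGgcag
Ppp1r15a upstream AUG 1: tggacgATGttgg
Ppp1r15a upstream AUG 2: gattacATGcgat
Ppp1r15a upstream AUG 3: ggcgacATGaacc
Ppp1r15a main AUG: agacacATGgccc
Ifrd1 upstream AUG 1: agaaacATGtatc
Ifrd1 main AUG: cccacgATGccga
Trib3 main AUG: gacaagATGcgag
Chac1 main AUG: ggcaccATGaagc

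The promoters of 8 of the 10 genes were matched in RefSeq (GRCm38), as 9 windows of 250 bases before to 50 bases after the start site. They were searched on both strands for the letters TGATGNAA, the core of the composite element that ATF4 binds together with a C/EBP partner. A match was found in 3 of the 8 genes, Asns, Trib3 and Chac1, against 4.51% of the 27025 genes and 3.97% of the 32851 promoters in the table. In Asns the match started 23 bases before the start site, in Trib3 14 bases after it and in Chac1 193 bases before it. The windows below hold each match with flanking bases. They span chr6:7693215-7693242 (− strand) in Asns, chr2:152344029-152344056 (− strand) in Trib3 and chr2:119351039-119351066 (+ strand) in Chac1. The windows are written along the gene's own strand with the matching letters in capitals, and in Trib3 and Chac1 the match reads on the opposite strand.
Asns: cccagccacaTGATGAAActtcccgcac
Trib3: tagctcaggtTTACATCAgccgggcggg
Chac1: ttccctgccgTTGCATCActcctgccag
The Gencode transcript of Asns starts further upstream than the RefSeq start, and its 2 upstream AUGs both lie before the RefSeq start, in these same letters. Whether Asns mRNA carries an upstream AUG therefore depends on the start site used.

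Across the 10 genes, Asns and Trib3 were called lower in EpiLCs both in total RNA and in RPF, and none was called higher. A call needed an adjusted p below 0.05 and a change of more than 1 on the log2 scale, in limma with Benjamini-Hochberg adjustment over the 11750 genes. In all genes, 9.7% were called lower and 14.6% higher for total RNA, and 10.6% lower and 15.4% higher for RPF, so 2 of 10 is to be read against about 1 in 10. With no fold limit, 8 of the 10 passed adjusted p in total RNA (6 lower, 2 higher) and 5 in RPF (all lower), against 65.4% and 59.8% of all genes in either direction. Under the 8 alternatives the counts lower stayed at 6 and 5, but the 2 genes higher in total RNA, Ifrd1 and Slc35a4, came to 0 with DESeq2, limma-trend or every gene kept and to 1 with edgeR, DESeq2 size factors or the stricter count filter. The median of the 10 genes was −0.36 for the mRNA change and −0.42 for the RPF change on the log2 scale, against 0.03 and 0.01 over all genes tested.

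**Figure D1:**
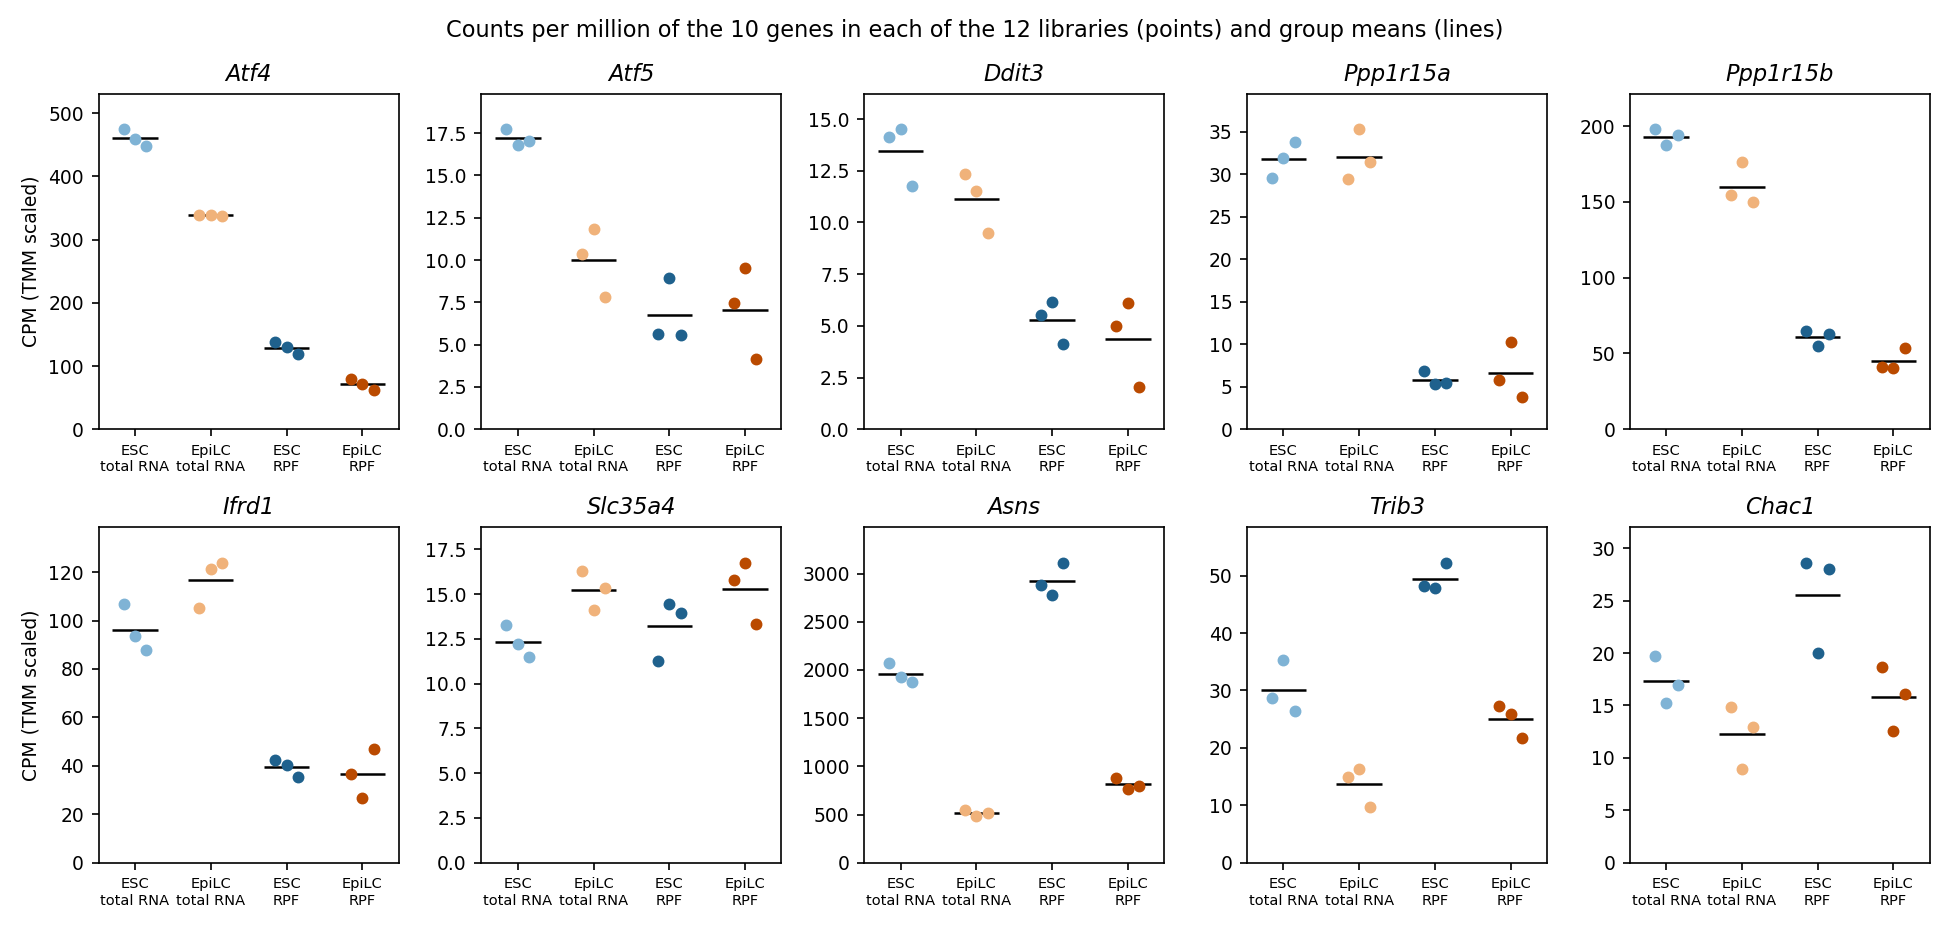
CPM (TMM scaled, linear axis from 0) of each gene in the 12 libraries, with points for libraries and lines for the mean of 3. Asns and Trib3 sit lower in EpiLCs in both assays with no overlap, while Atf4, Atf5, Ddit3, Ppp1r15a, Ppp1r15b and Ifrd1 have lower CPM in RPF than in total RNA within ESCs.

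Atf4 (ENSMUSG00000042406.7, counted over chr15:80256344-80257460, + strand) is the transcription factor at the centre of the response. Its total RNA stood at 474, 459 and 448 CPM in the 3 ESC libraries and at 339, 339 and 337 CPM in the 3 EpiLC libraries. In RPF it stood at 138, 130.4 and 119 CPM in ESCs and at 80.3, 72.3 and 61.9 CPM in EpiLCs. EpiLC libraries were lower than every ESC library in both assays, and in each cell type every RPF value was lower than every total RNA value. The mRNA change was −0.44 ± 0.06 on the log2 scale (SE, adjusted p = 2.38e-07, limma) and the RPF change −0.86 ± 0.10 (adjusted p = 4.93e-08), both past the p threshold and within the fold limit. Their difference gives the change of TE, short for translational efficiency, the log2 ratio of RPF to total RNA. It was −0.41 ± 0.11 with a 95% interval of −0.65 to −0.18 and an adjusted p of 0.0714. That p was 0.0364 with a replicate block, 0.0378 in DESeq2, 0.0431 without ESC RPF replicate 3 and 0.0412 without EpiLC RPF replicate 1, and up to 0.135 under the other alternatives and up to 0.351 without single libraries. Of the counted sequence of 1005 nt, 38 nt are shared with the overlapping upstream frame, so that ribosomes on that frame add to the Atf4 count there.

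Atf5 (ENSMUSG00000038539.15, chr7:44812847-44815121, − strand), a relative of ATF4 with a like uORF arrangement, gave few footprints, 22 to 61 counts a library. Its total RNA stood at 17.7, 16.8 and 17.1 CPM in ESCs and at 10.3, 11.9 and 7.79 CPM in EpiLCs. Its RPF level was 5.64, 8.93 and 5.596 CPM in ESCs and 7.47, 9.51 and 4.13 CPM in EpiLCs. Total RNA did not overlap between the cell types and was lower in EpiLCs, while RPF overlapped over nearly its whole range. The mRNA change was −0.81 ± 0.17 (SE, log2, adjusted p = 0.000151, limma) and the RPF change 0.01 ± 0.31 (adjusted p = 0.984). The TE change was 0.82 ± 0.35 with a 95% interval of 0.10 to 1.54 and an adjusted p of 0.283, the highest of the 10 genes. Leaving out EpiLC RPF replicate 3 moved it to 1.23 with an adjusted p of 0.102.

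Ddit3 (ENSMUSG00000025408.15, chr10:127295386-127296091, + strand) encodes CHOP, which promotes cell death under lasting stress. In total RNA it stood at 14.1, 14.5 and 11.7 CPM in ESCs and at 12.4, 11.5 and 9.51 CPM in EpiLCs. In RPF it stood at 5.51, 6.17 and 4.13 CPM in ESCs and at 4.98, 6.08 and 2.06 CPM in EpiLCs, on 11 to 45 counts a library. The cell types overlapped in both assays. The mRNA change of −0.25 ± 0.17 and the RPF change of −0.41 ± 0.37 (SE, log2) did not pass the test, with adjusted p of 0.188 and 0.354 in limma. Without EpiLC RPF replicate 3, the lowest library of its group, the RPF change was 0.14.

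Ppp1r15a and Ppp1r15b encode GADD34 and CReP, the inducible and the constitutive subunit that guide protein phosphatase 1 to eIF2α and so end the response. Ppp1r15a (ENSMUSG00000040435.12, chr7:45522993-45525337, − strand) stood at 29.5, 31.9 and 33.8 CPM in ESC total RNA and at 29.4, 35.3 and 31.4 CPM in EpiLC total RNA. Its RPF level was 6.79, 5.32 and 5.41 CPM in ESCs and 5.81, 10.3 and 3.75 CPM in EpiLCs. The cell types overlapped in both assays, and its mRNA change was −0.01 ± 0.11 and its RPF change −0.07 ± 0.31 (SE, log2), with 95% intervals of −0.24 to 0.22 and −0.72 to 0.57. The sign of both differed between alternatives, so no direction can be given.

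Ppp1r15b (ENSMUSG00000046062.5, chr1:133131792-133136887, + strand) was lower in EpiLCs in every library of both assays. Total RNA stood at 198, 187 and 194 CPM in ESCs and at 155, 176 and 149.6 CPM in EpiLCs. RPF stood at 65.0, 54.9 and 63.1 CPM in ESCs and at 41.3, 40.7 and 53.5 CPM in EpiLCs. The mRNA change was −0.28 ± 0.07 (SE, log2, adjusted p = 0.000979, limma) and the RPF change −0.43 ± 0.12 (adjusted p = 0.00439), both within the fold limit.

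Ifrd1 (ENSMUSG00000001627.12, chr12:40203362-40222911, − strand), a transcriptional coregulator with a uORF, was the more abundant in EpiLC total RNA. It stood at 107, 93.7 and 87.9 CPM in ESC and at 105, 121 and 124 CPM in EpiLC total RNA. In RPF it stood at 42.6, 40.4 and 35.3 CPM in ESCs and at 36.7, 26.6 and 46.9 CPM in EpiLCs. Both assays overlapped between the cell types. The mRNA change was 0.26 ± 0.09 (SE, log2, adjusted p = 0.0157, limma) and lay between 0.20 and 0.35 as single libraries were left out. Its adjusted p did not pass without ESC total RNA replicate 3 (0.0945) or EpiLC total RNA replicate 3 (0.0804), nor with every gene kept (0.0522), DESeq2 (0.0952) or limma-trend (0.111). The RPF change was −0.04 ± 0.16 (adjusted p = 0.864, limma).

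Slc35a4 (ENSMUSG00000033272.12, chr18:36680546-36683093, + strand), named for a family of nucleotide sugar transporters, needs a separate reading. Of its 1197 counted nt, 267 nt (22.3%) belong not to the main coding sequence but to an annotated upstream reading frame of 103 codons, which is 1 of 18 upstream AUGs in its transcript, and the remaining 930 nt are main coding sequence. Its RPF count is therefore a sum over both frames. Total RNA stood at 13.3, 12.2 and 11.5 CPM in ESCs and at 16.3, 14.1 and 15.4 CPM in EpiLCs, higher in every EpiLC library. RPF stood at 11.3, 14.5 and 13.9 CPM in ESCs and at 15.8, 16.7 and 13.3 CPM in EpiLCs and overlapped. The mRNA change was 0.33 ± 0.14 (SE, log2, adjusted p = 0.0389, limma), within the fold limit, and the RPF change 0.19 ± 0.18 (adjusted p = 0.384). The mRNA change did not pass adjusted p in 6 of 8 alternatives, edgeR (0.0707) and DESeq2 (0.148) among them, and passed it in 4 of 12 fits that left out a library, with values up to 0.181.

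Asns (ENSMUSG00000029752.12, chr6:7675315-7689455, − strand), asparagine synthetase, showed the largest change of the 10 genes. Its total RNA stood at 2069, 1928 and 1879 CPM in ESCs and at 542, 483 and 521 CPM in EpiLCs. Its RPF level was 2884, 2773 and 3109 CPM in ESCs and 881, 767 and 797 CPM in EpiLCs. The lowest ESC library was above 3 times the highest EpiLC library in each assay. Total RNA fell 3.78-fold (log2 change −1.92 ± 0.06, SE, adjusted p = 6.14e-19, limma) and RPF fell 3.59-fold (log2 change −1.85 ± 0.06, adjusted p = 6.06e-18), and both calls were made under every alternative and without any single library. The TE change was 0.07 with a 95% interval of −0.10 to 0.24.

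Trib3 (ENSMUSG00000032715.9, chr2:152338207-152343282, − strand) encodes a pseudokinase that ATF4 induces and that in turn restrains ATF4. Total RNA stood at 28.7, 35.3 and 26.4 CPM in ESCs and at 14.9, 16.3 and 9.74 CPM in EpiLCs. RPF stood at 48.2, 47.9 and 52.2 CPM in ESCs and at 27.4, 25.9 and 21.8 CPM in EpiLCs. The cell types did not overlap in either assay. Total RNA fell 2.23-fold (log2 change −1.16 ± 0.15, SE, adjusted p = 3.97e-07, limma) and RPF fell 2.02-fold (log2 change −1.01 ± 0.17, adjusted p = 1e-05). The RPF change lay at the fold limit and was not called in 4 of 8 alternatives, where it was −0.98 to −0.997, nor without ESC RPF replicate 3 (−0.96) or EpiLC RPF replicate 3 (−0.89), and the mRNA change was not called without EpiLC total RNA replicate 3 (−0.96). Each of these kept its sign and its adjusted p below 0.05.

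Chac1 (ENSMUSG00000027313.3, chr2:119351448-119353590, + strand) encodes an enzyme that degrades glutathione. In total RNA it stood at 19.7, 15.3 and 16.98 CPM in ESCs and at 14.8, 8.97 and 12.9 CPM in EpiLCs. In RPF it stood at 28.6, 19.996 and 27.98 CPM in ESCs and at 18.7, 12.5 and 16.1 CPM in EpiLCs. EpiLC libraries were lower than every ESC library in both assays, on 33 to 305 RPF counts. The mRNA change was −0.44 ± 0.17 (SE, log2, adjusted p = 0.0266, limma) and the RPF change −0.69 ± 0.21 (adjusted p = 0.00581), within the fold limit. The adjusted p of the mRNA change was 0.128 without ESC total RNA replicate 1, 0.122 without EpiLC total RNA replicate 2 and 0.0546 without EpiLC total RNA replicate 3.

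**Figure D2:**
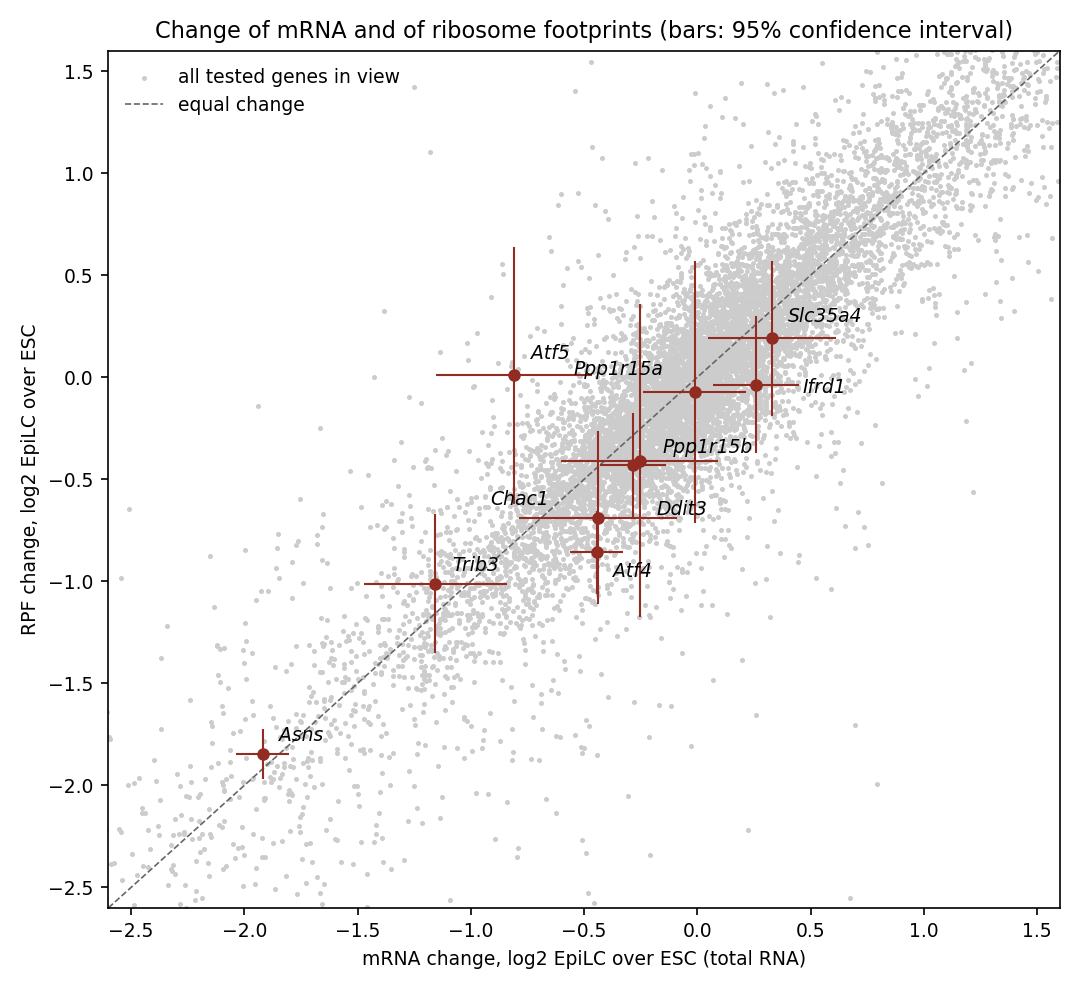
RPF change against mRNA change (log2, EpiLC over ESC) for the 10 genes in red with 95% confidence intervals, and for the tested genes within the axes in grey; the dashed line marks equal change. Asns (−1.92 and −1.85) and Trib3 (−1.16 and −1.01) lie near the line of equal change, Atf4 below it and Atf5 above it.

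None of the 10 genes was called for the TE change, against 0.136% of all genes called higher and 0.119% called lower, and none passed adjusted p with no fold limit, against 1.2% of all genes. At an unadjusted p below 0.05, the genes were Atf4 and Atf5, 2 of 10 in opposite directions, against 13.9% of all genes. In edgeR 0 of 10 and in DESeq2 0 of 10 were called. The median TE change of the 10 genes was −0.14 on the log2 scale, against 0.01 over all genes tested. Intervals of the genes with few footprints were wide, −0.996 to 0.69 for Ddit3 and −0.74 to 0.62 for Ppp1r15a, and changes inside them were not detectable here. The part of depth in these widths was not tested.

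The level of TE separated the 10 genes more clearly than its change did. In ESCs, Atf4, Atf5, Ddit3, Ppp1r15a, Ppp1r15b and Ifrd1 were called lower in RPF than in total RNA, 6 of 10 genes against 13.5% of all genes, and none was called higher, against 7.93% of all genes. In EpiLCs the same genes without Atf5 were called lower, 5 of 10 against 14.4%, and again none higher, against 9.39%. The median TE of the 10 genes was −1.37 in ESCs and −1.12 in EpiLCs on the log2 scale, against −0.02 and −0.01 over all genes tested. TE is a ratio of 2 libraries that were each scaled to their own total, so 0 marks about the middle of all genes and not an absolute rate.

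Ppp1r15a had the lowest fitted TE, −2.43 ± 0.20 in ESCs (SE, log2, adjusted p = 1.2e-10, limma) and −2.49 ± 0.26 in EpiLCs (adjusted p = 8.15e-09), at percentiles 1.1 and 1.2 of all genes tested. Atf4 followed with −1.84 ± 0.07 in ESCs (adjusted p = 2.91e-17) and −2.26 ± 0.09 in EpiLCs (adjusted p = 3.33e-16), which put it at percentile 3.51 and then 1.86. Ppp1r15b stood at −1.65 ± 0.09 in ESCs and −1.79 ± 0.11 in EpiLCs. Neighbours in this order overlapped in their intervals in part: that of Ppp1r15b in ESCs, −1.82 to −1.47, met that of Atf4, −1.98 to −1.71, while that of Ppp1r15a, −2.85 to −2.01, met neither of them. In EpiLCs the interval of Ppp1r15a, −3.03 to −1.95, held all of that of Atf4, −2.45 to −2.07, and without EpiLC RPF replicate 3 the values were −2.10 and −2.12, so no order between these genes can be given there.

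Atf5, Ddit3 and Ifrd1 had TE of −1.47 ± 0.21, −1.43 ± 0.23 and −1.31 ± 0.12 in ESCs (SE, log2). Their intervals overlapped each other, and those of Atf5 (−1.90 to −1.04) and Ddit3 (−1.91 to −0.95) also overlapped those of Ppp1r15b and Atf4. That of Ifrd1 (−1.55 to −1.06) overlapped that of Ppp1r15b but not that of Atf4. In EpiLCs, Ddit3 stood at −1.59 ± 0.34 and Ifrd1 at −1.60 ± 0.15, both called lower. Atf5 stood at −0.65 ± 0.28 there (adjusted p = 0.0449), a value that lay between −0.81 and −0.24 as single libraries were left out and whose adjusted p reached 0.493 without EpiLC RPF replicate 3. The calls of Atf4, Ddit3, Ppp1r15a, Ppp1r15b and Ifrd1 in both cell types and of Atf5 in ESCs were made under every alternative and without any single library.

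Asns, Trib3 and Chac1 lay on the other side. In ESCs their TE was 0.58 ± 0.05, 0.74 ± 0.12 and 0.60 ± 0.15 (SE, log2), each past adjusted p and within the fold limit, at percentiles 79.7, 85.2 and 80.3 of all genes. In EpiLCs, Asns stood at 0.66 ± 0.07 and Trib3 at 0.88 ± 0.19, while Chac1 at 0.35 ± 0.22 did not pass the test (adjusted p = 0.171). Trib3 reached 1.02 in EpiLCs, past the fold limit, without EpiLC RPF replicate 3 or without EpiLC total RNA replicate 1. Slc35a4, whose count mixes 2 reading frames, lay near the middle at 0.09 ± 0.15 in ESCs and −0.05 ± 0.17 in EpiLCs.

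**Figure D3:**
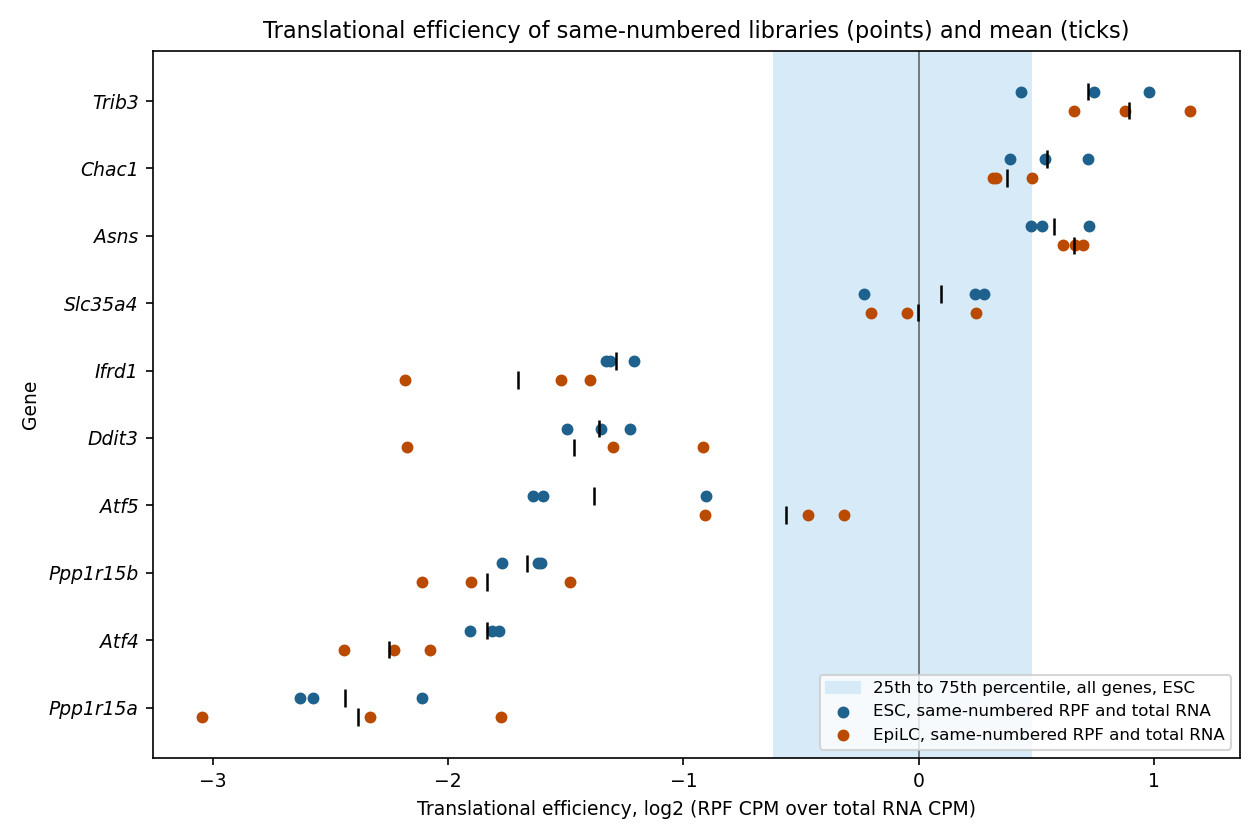
TE (log2 of RPF CPM over total RNA CPM) of the 10 genes, ordered by TE in ESCs, from RPF and total RNA libraries of the same number, with ESCs in blue, EpiLCs in orange and ticks for the mean of 3; the shaded band spans the 25th to 75th percentile of all genes in ESCs (−0.62 to 0.48). In ESCs, Ppp1r15a, Atf4, Ppp1r15b, Atf5, Ddit3 and Ifrd1 lie left of the band in every pair of libraries.

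The 10 genes were set beside all genes with the same number of upstream AUGs, since TE differs with that number. Over 11708 tested genes with a transcript, 49.6% had at least 1 upstream AUG. Median TE in ESCs was 0.17 (log2) in 5896 genes with none, −0.10 in 2605 genes with 1, −0.26 in 1213 genes with 2, −0.41 in 1423 genes with 3 to 5 and −0.61 in 571 genes with 6 or more. The median length of the 5′ UTR moved with these classes, from 107 nt with no upstream AUG to 610 nt with 6 or more, and its part in the order was not tested. Medians of the TE change were between −0.03 and 0.02 in all 5 classes.

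Ifrd1, with 1 upstream AUG, had a TE in ESCs below the 25th percentile of its class (−1.31 against −0.69). Atf5 and Ddit3, with 2, also lay below theirs (−1.47 and −1.43 against −0.91), as did Atf4, Ppp1r15a and Ppp1r15b, with 3 each (−1.84, −2.43 and −1.65 against −0.98). All of these genes were called lower in ESCs. The fold limit of that call lies below each of these 25th percentiles, so their place below them follows from the call. Trib3 and Chac1, with none, had 0.74 and 0.60 against a 75th percentile of 0.60. Asns, whose 2 upstream AUGs depend on the start site used, had 0.58 against a 75th percentile of 0.26. Counted with none, as from the RefSeq start, its 0.58 lay within the quartiles of that class (−0.34 to 0.60). Slc35a4, with 18, had 0.09 against a 75th percentile of 0.08 on its mixed count. These are descriptions over genes, which are not replicates.

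**Figure D4:**
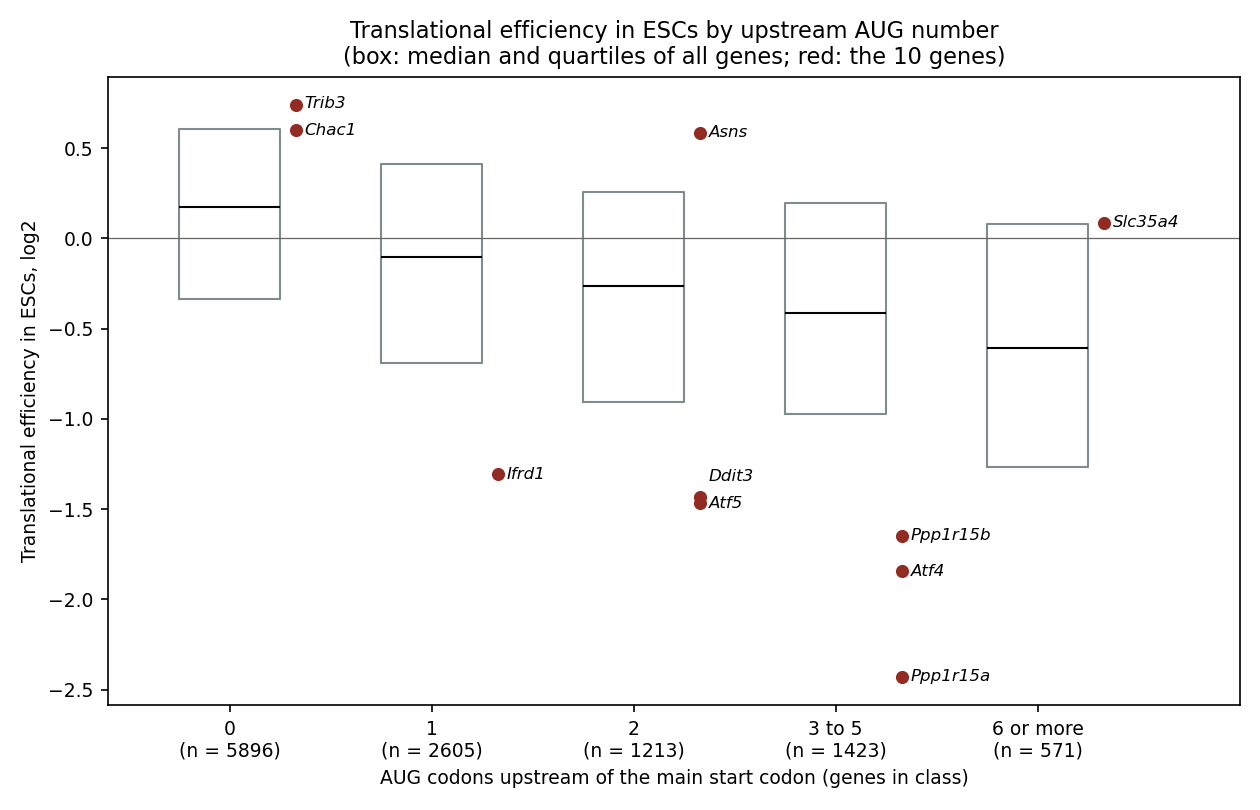
TE in ESCs (log2) by number of AUG codons upstream of the main start, with boxes for the median and quartiles of all genes in each class (n under each) and the 10 genes in red. The medians run from 0.17 with no upstream AUG to −0.61 with 6 or more. The 6 genes called lower lie beneath the box of their class, which follows from the call, since its fold limit lies beneath those boxes.

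Per kilobase of counted sequence, Asns was the most abundant of the 10 in ESC total RNA, at 1194 ± 60.2 CPM per kb (SD, n = 3), followed by Atf4 at 458 ± 13.1 CPM per kb. Ppp1r15b stood at 94.2 ± 2.57 and Ifrd1 at 73.7 ± 7.53 CPM per kb. Trib3, Ddit3 and Chac1 stood at 29.6 ± 4.53, 29.1 ± 3.24 and 27.6 ± 3.56 CPM per kb and did not differ beyond their spread. Atf5, Ppp1r15a and Slc35a4 were the least abundant, at 21.3 ± 0.60, 16.5 ± 1.11 and 10.3 ± 0.75 CPM per kb. In ESC RPF the order was another one: Asns stood at 1781 ± 104 CPM per kb and Atf4 at 129 ± 9.29, Trib3 and Chac1 at 48.5 ± 2.37 and 40.7 ± 7.65 lay above Ifrd1 (30.2 ± 2.85) and Ppp1r15b (29.8 ± 2.63), and Ppp1r15a was the lowest at 3.03 ± 0.43.

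The genes closest to Asns over the 12 libraries, by the root mean square difference of log2 CPM centred on each gene's mean, were Sod2 (0.08), the mitochondrial superoxide dismutase, Bcat1 (0.09), an aminotransferase of branched-chain amino acids, and Hk1 (0.11), a hexokinase. For Atf4 they were Tex15 (0.14), Casp8ap2 (0.14) and Med13l (0.14), whose TE in ESCs was −1.73, −1.78 and −1.93. The match used RPF and total RNA libraries together, so a TE near that of Atf4 is part of how these genes were chosen. For Ddit3 they were Ube2q2 (0.22), Sec31b (0.27) and Rpl37a (0.28), with larger differences.

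Other genes of the pathway were read from lists. Their counts stand against 9.7% of all genes called lower and 14.6% higher in total RNA, and 10.6% and 15.4% in RPF. Upstream of Atf4, 0 of 4 eIF2α kinases were called in the mRNA or RPF change (median mRNA change −0.41, log2). Eif2ak2, the kinase that senses double-stranded RNA, had an RPF change of −0.95 ± 0.20 (SE, adjusted p = 0.000234, limma), and Eif2ak1, the haem-regulated kinase, −0.52 ± 0.12. Eif2ak3 (PERK), which senses stress in the endoplasmic reticulum, had −0.10 and Eif2ak4 (GCN2), which senses uncharged tRNA, −0.04, neither past adjusted p. Of 8 subunits of eIF2 and of its exchange factor eIF2B, 3 were called lower in total RNA and 2 in RPF, and none higher (median mRNA change −0.28). Eif2s2, the β subunit of eIF2, fell 2.84-fold in total RNA and 4.004-fold in RPF (adjusted p = 4.68e-12 and 1.42e-11). Eif2b4 fell 2.04-fold and 2.07-fold, and Eif2b5, the catalytic subunit of eIF2B, fell 2.08-fold in total RNA, with an RPF change of −0.98 that was within the fold limit.

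Of 9 ATF4 target enzymes of amino acid synthesis and one-carbon metabolism, 4 were called lower in total RNA and 3 in RPF, and none higher. Over all genes, 9.7% were called lower in total RNA and 10.6% in RPF. The median mRNA change of the 9 was −0.79 (log2) against 0.03 over all genes. In each assay 8 of the 9 changes were negative. The exception was Phgdh, with 0.12 in total RNA (adjusted p = 0.273, limma) and 0.31 in RPF (adjusted p = 0.0425), within the fold limit. Cth, cystathionine γ-lyase, which makes cysteine, fell 3.44-fold in total RNA and 3.66-fold in RPF. Cbs, the preceding enzyme, fell 2.02-fold and 2.28-fold, and Shmt2, the mitochondrial serine hydroxymethyltransferase, fell 2.18-fold and 2.22-fold. Psph, the last enzyme of serine synthesis, fell 2.01-fold in total RNA, with an RPF change of −0.93 within the fold limit. The median TE of these 9 enzymes in ESCs was 0.71 (log2), the side on which Asns also lay. In ESCs 4 of the 9 were called higher in RPF than in total RNA, against 7.93% of all genes. In EpiLCs 3 of the 9 were, against 9.39%.

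Of 6 ATF4 target transporters of amino acids, 5 were measured above the filter. Of these, 2 were called lower in total RNA and 1 in RPF, against 9.7% and 10.6% of all genes. None was called higher (median mRNA change −0.32, log2). Within the fold limit, Slc38a2 had log2 changes of 0.72 in total RNA and 0.87 in RPF (adjusted p = 1.6e-10 and 1.13e-11, limma). The other 4 had negative changes in both assays, not all past adjusted p. Slc7a1, a carrier of arginine and lysine, fell 3.65-fold in total RNA and 3.82-fold in RPF (adjusted p = 1.36e-14 and 2.1e-14, limma), and Slc1a5, a glutamine carrier, fell 2.14-fold in total RNA, with an RPF change of −0.80 within the fold limit. Slc7a11, the cystine carrier, did not pass the filter.

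Of 10 other ATF4 targets that act in stress regulation, 9 were measured above the filter and 2 were called lower in each assay, with 1 called higher in RPF (median mRNA change 0.19, log2). Over all genes, 9.7% were called lower in total RNA, and 10.6% lower and 15.4% higher in RPF. Nupr1, a small chromatin-associated stress protein, fell 11.4-fold in total RNA and 9.39-fold in RPF (adjusted p = 6.06e-11 and 1.16e-11, limma). Gdf15, a secreted stress cytokine, fell 8.31-fold in total RNA and 13.3-fold in RPF, where EpiLC libraries held 2 to 21 counts. Atf3, a stress-induced transcription factor, rose in RPF (log2 change 1.04 ± 0.24, adjusted p = 0.000543) but not in total RNA (0.19 ± 0.18, adjusted p = 0.371), and its TE change did not pass the test (adjusted p = 0.17). Of the 9 genes, 5 had positive and 4 negative mRNA changes, and 4 had positive and 5 negative RPF changes. Within the fold limit, Vldlr (0.57 in total RNA and 0.89 in RPF), Cebpb (0.63 and 0.62) and Ddit4 (0.34 and 0.33) rose past adjusted p in both assays. Eif4ebp1 fell past it in both (−0.77 and −0.65).

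Of 7 other genes with described uORFs, 6 were measured above the filter, and 1, Cebpa, was called higher in total RNA and RPF (log2 changes 1.77 ± 0.34 and 2.43 ± 0.38). Over all genes, 14.6% were called higher in total RNA and 15.4% in RPF. Bace1, a protease of membrane proteins, had log2 changes of 0.95 ± 0.19 in total RNA and 0.90 ± 0.27 in RPF (adjusted p = 8.74e-05 and 0.00602, limma), within the fold limit. Azin1, an inhibitor of antizyme, had a TE of −1.62 in ESCs and −2.19 in EpiLCs and was called lower in both, as Atf4 was. Ibtk was called lower in EpiLCs (−1.30). The median TE of the 6 in ESCs was −0.39 (log2), less far down than the −1.37 of the 10 genes, and this difference was not tested. Of 10 genes of the unfolded protein response of the endoplasmic reticulum, 1 was called lower in total RNA, against 9.7% of all genes, and none in RPF, against 10.6% (median mRNA change −0.03). That gene was Sdf2l1, a chaperone cofactor, with a log2 change of −1.01 in total RNA and −0.85 in RPF, and Atf6, a membrane-bound sensor of this response, had −0.14 and −0.63. In each assay 4 of the 10 changes were positive and 6 negative. Hspa5 rose by 0.42 in total RNA and 0.37 in RPF (adjusted p = 3.46e-07 and 3.15e-06, limma). Hsp90b1 rose by 0.36 and 0.34 (adjusted p = 5.74e-07 and 1.4e-06), all within the fold limit.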

How the data were processed

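Ribosome profiling libraries were made from ESCs and EpiLCs with the TruSeq Ribosome Profiling kit. Per the submitters' processing notes and the study's methods, reads were trimmed with cutadapt version 1.14, and reads mapped once with STAR version 2.5.3a to mm10 with Gencode M14 were kept, of 26 to 32 nt for RPF and at least 32 nt for total RNA. The authors deposited raw counts per gene, made with featureCounts version 1.5.3 from the 5′ end of each read on the sense strand, over coding sequence without its first 45 nt. How PCR duplicates were treated is not given in the sources used here.

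Genes with at least 3 CPM in at least 3 libraries were kept. TMM factors (edgeR version 4.0.16, R version 4.3.3) set the library sizes, and voom with limma version 3.58.1 fitted a single model with 4 groups and no replicate block, tested on simulated data. TE change is the interaction of assay and cell type. Every p called adjusted is limma's, with Benjamini-Hochberg adjustment over the 11750 genes, unless another tool is named. Library pairs of a group differed beyond sampling noise (chi-square per degree of freedom 2.46 to 7.19 over 12 pairs), so none was merged.

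The 10 genes and the lists were chosen with earlier results of these data known. All 10 genes are named. From each list, at most 4 genes are named, those called with the largest RPF change, or, where fewer than 2 are called, the 2 with the largest, and kinases and eIF2 and eIF2B subunits may all be named. Azin1, Ibtk, Slc38a2, Phgdh, Vldlr, Cebpb, Ddit4, Eif4ebp1, Hspa5 and Hsp90b1 were added after their values were seen, as were the cell type markers given singly.

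Transcripts came from Gencode M21, a later release on the same assembly, with the principal isoform and then support level and length deciding between several. Promoters came from RefSeq on GRCm38 and matched 8 of 10 genes (not Ppp1r15b and Slc35a4). Alternatives were edgeR's quasi-likelihood test, DESeq2 version 1.42.0, limma-trend, other scaling factors, other filters, no fold limit, replicate or culture blocks and leaving out each library.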

Additional observations from a re-analysis of the deposited data

How the results depend on the processing

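Of 530 values of single genes and contrasts under the alternatives, 498 kept their direction and their side of the call. The number of the 10 genes called lower in RPF was 1 in place of 2 with edgeR, limma-trend, total counts in place of TMM and the replicate block (Trib3: −0.995, −0.982, −0.982 and −0.997), and 1 to 2 as single libraries were left out; the number called lower in total RNA was then also 1 to 2, and the number with TE called higher in EpiLCs 0 to 1. With no fold limit, 2 genes were higher and 6 lower in total RNA, 5 were lower in RPF, and TE was higher for 3 genes in ESCs and 2 in EpiLCs. The replicate block left the other calls of the 10 genes in place. Same-numbered libraries did not deviate together (correlations of their deviations over genes −0.18 to 0.16), so the block pairs libraries by number only; over all genes it raised the calls of TE change from 30 to 53.

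Directions turned for values near 0 that pass no test. The mRNA change of Ppp1r15a was 0.0045 with edgeR, 0.011 with limma-trend, 0.01 with the replicate block and −0.0665 to 0.0637 without single libraries. Its RPF change was 0.0317 with edgeR, 0.0149 with DESeq2, 0.0663 with limma-trend and −0.32 to 0.30 without single libraries, and its TE change 0.0272, 0.0504 and 0.0555 with these, 0.0035 with at least 10 counts in every library, 0.045 with the culture block and −0.29 to 0.33 without single libraries. The RPF change of Atf5 was −0.0205 with DESeq2 size factors, −0.012 with every gene kept and −0.16 to 0.41 without single libraries. Without single libraries the RPF change ran from −0.67 to 0.14 for Ddit3 and −0.25 to 0.11 for Ifrd1, the TE change from −0.40 to 0.41 for Ddit3 and −0.0511 to 0.286 for Trib3, and the TE of Slc35a4 from −0.0026 to 0.19 in ESCs and −0.0975 to 0.075 in EpiLCs, where it was 0.0289 with DESeq2 and 0.0028 with its size factors. Without EpiLC RPF replicate 3, Ddit3 and Ppp1r15a reached the upper end of these ranges for the RPF and TE change.

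The footprint values of Atf5, Ddit3 and Ppp1r15a rest on 11 to 61 counts a library, and the part of depth in their spread was not tested. Counting errors do not cover PCR duplicates. Counts of Slc35a4 hold 22.3% upstream sequence, and reads on the 2 frames were not separated.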
